A study of Ovis aries with 40 samples.

Results

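Matricellular proteins and tissue inhibitors of metalloproteinases were measured in sheep muscle, with 9 genes chosen by name: THBS1, TGFBI, SPARC, TIMP1, TIMP2, TIMP3, MMP2, SERPINH1 and FN1. All 9 were represented on the GeneChip Bovine Genome array, by 18 of the 13292 probe sets that carry a single gene symbol, out of 9155 genes represented in this way. Where a gene had several, the one with the largest mean over the 40 arrays was its main probe set. No other measured value entered this choice of probe set. The 9 genes themselves were chosen with earlier results of these data known. The RNA was from the longissimus (LM) muscle of 40 Poll Dorset sheep at 78 weeks of age, 1 array for each animal. Of these, 19 were progeny of 3 sires with a high estimated breeding value for eye muscle depth (high muscling: sire 11 with 8 progeny, sire 2 with 7 and sire 7 with 4), and 21 were progeny of 3 sires with a low value (low muscling: sire 16 with 8, sire 17 with 5 and sire 5 with 8). The class is that of the sire, no muscling value of the animal itself was used, and each sire had progeny in 1 class only. No treatment or genotype at a named locus separates the groups.

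Matricellular proteins are secreted into the extracellular matrix but are regulators rather than structural parts of it. THBS1 (thrombospondin 1) binds CD36 and CD47 and can activate latent TGF-beta, TGFBI is an integrin ligand that was found as a gene induced by TGF-beta, and SPARC is a collagen-binding glycoprotein. The TIMPs inhibit matrix metalloproteinases such as MMP2, the gelatinase that degrades denatured collagen and basement membrane collagen, and TIMP2 also takes part in the activation of the MMP2 proenzyme. SERPINH1 (HSP47) is the chaperone of procollagen in the endoplasmic reticulum, and FN1 (fibronectin) forms the fibrils on which other matrix components are assembled. In muscle these genes are expressed largely by fibroblasts and other cells between the fibres.

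The values are MAS5 signals, in the text called signal, a linear intensity that is comparable between arrays for 1 probe set but not between probe sets. A gene was taken as detected when its mean signal reached 61.8, the median over the probe sets that are not controls, and 6360 of the 9155 genes did. All 9 genes were detected, and the lowest group mean among them was 91.6, that of MMP2 in high muscling. Array medians lay between 56.1 and 67. The first principal component of the detected genes took a share of 0.146 of the variance, and sire accounted for a share of 0.814 of that component. The markers of the labelled tissue were abundant, and the 6 muscle fibre genes measured (CKM, ACTA1, TNNT3, MYH1, MYH7 and MYL2) had mean signals from 17446 (MYH7) to 29156 (CKM). The samples were whole muscle, so fewer cells of a type and less RNA per cell cannot be told apart.

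Among the matricellular genes, THBS1 and TGFBI were lower in high muscling, while SPARC did not pass the test. THBS1 (cattle gene 281530) had a lowest signal of 78.8, a median of 167 and a highest of 1089 in high muscling, and 149.5, 527 and 2345 in low muscling. The groups overlapped between these ends, with 9 high muscling animals below every low muscling animal and 3 low muscling animals above every high muscling animal. Of the 19 high muscling animals, 18 were below the median of low muscling. The signal was 2.63-fold higher in low muscling (95% confidence interval 1.45 to 4.78, a log2 difference of high minus low of -1.40 ± 0.43 SE, limma with sire as a random block, adjusted p = 0.0367 over all detected genes).

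TGFBI (cattle gene 539596) ran from 20.7 through a median of 124 to 206 in high muscling and from 26.1 through 299 to 465.9 in low muscling. All 19 high muscling animals were below the low muscling median, and 16 of the 21 low muscling animals were above every high muscling animal. The fold was 2.37 (1.41 to 4.01), with a log2 difference of -1.25 ± 0.37 SE (limma, adjusted p = 0.0326). SPARC (cattle gene 282077) had values from 506 to 1130 with a median of 715 in high muscling and from 562.4 to 1332 with a median of 795 in low muscling. These ranges lay largely on top of each other, and the fold of low over high muscling was 1.10 with an interval of 0.912 to 1.34 (log2 difference -0.14 ± 0.14 SE, adjusted p = 0.598).

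**Figure D1:**
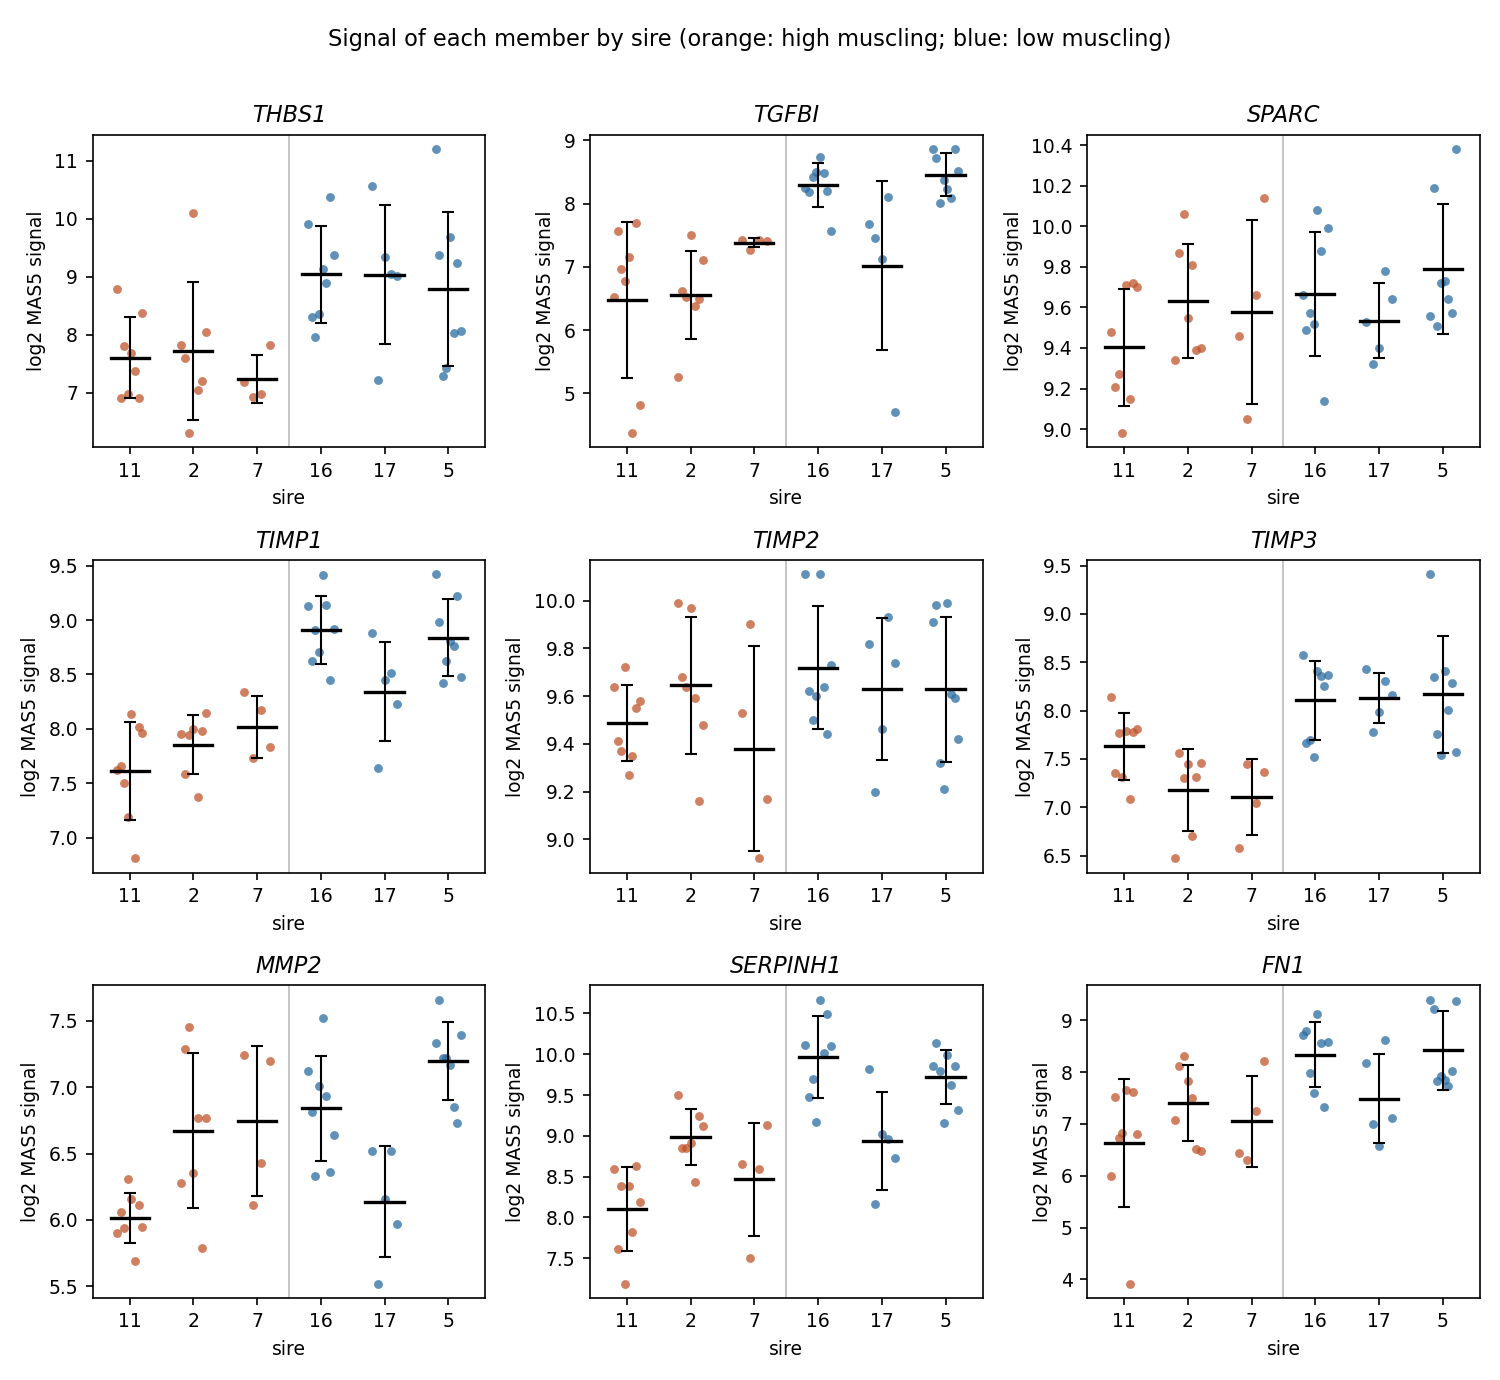
The log2 MAS5 signal of each of the 9 genes is plotted by sire, with 1 point for each animal, a thick bar for the mean of the sire family and error bars of 1 SD, high muscling sires in orange on the left and low muscling sires in blue on the right. The vertical scale differs between panels, and the 3 orange family means lie below the 3 blue ones for THBS1, TIMP1, TIMP3 and FN1.

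Of the inhibitors, TIMP1 and TIMP3 were lower in high muscling and TIMP2 did not pass the test. TIMP1 (cattle gene 282092) gave the clearest separation of the 9 genes by the share of pairs below, with signals of 112 to 325 and a median of 245 in high muscling against 199.6 to 687 and a median of 434 in low muscling. In low muscling 19 of 21 animals were above every high muscling animal, and the 2 that were not were progeny of sire 17. The log2 difference was -0.92 ± 0.17 SE, a fold of 1.89 (1.49 to 2.39, adjusted p = 0.000785), which ranked at 20 of 6360 genes by p. TIMP3 (cattle gene 282094), the inhibitor that binds to the matrix itself, ran from 88.9 through a median of 164 to 282 in high muscling and from 184 through 304 to 679 in low muscling. Here 13 high muscling animals were below every low muscling animal, and all 19 were below the low muscling median. The log2 difference was -0.80 ± 0.19 SE, a fold of 1.75 (1.34 to 2.28, adjusted p = 0.00705).

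TIMP2 (cattle gene 282093) had signals from 486 to 1019 with a median of 750.2 in high muscling and from 589 to 1105 with a median of 786 in low muscling. The animals of the groups were intermixed, with the high muscling animal lower in 63.9% of the 399 pairs of 1 animal from each group. The fold was 1.11 with an interval of 0.929 to 1.32 (adjusted p = 0.543), and the corresponding share of pairs was 96.5% for TIMP1 and 90.5% for TIMP3. MMP2 (cattle gene 282872), the enzyme, had values of 51.8 to 175 (median 77.6) in high muscling and 45.8 to 203 (median 115) in low muscling. The lowest of all 40 values was from a low muscling animal, and the difference did not pass the test (log2 -0.33 ± 0.21 SE, fold 1.25 with an interval of 0.934 to 1.68, adjusted p = 0.386).

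SERPINH1, the collagen chaperone, was lower in high muscling, and FN1 fell just short of the threshold. SERPINH1 (cattle gene 510850) had signals of 146 to 725 with a median of 389 in high muscling and of 287 to 1633 with a median of 883 in low muscling. All 19 high muscling animals were below the low muscling median and 13 low muscling animals were above every high muscling animal. The log2 difference was -1.07 ± 0.24 SE, a fold of 2.10 (1.5 to 2.94, adjusted p = 0.0045). FN1 (cattle gene 280794) ran from 15.1 through a median of 134.5 to 320.2 in high muscling and from 95.2 through 259 to 676 in low muscling. The lowest value stood apart from the rest of its family, and 9 low muscling animals were above every high muscling animal. The log2 difference was -1.11 ± 0.38 SE, a fold of 2.16 (1.26 to 3.68, adjusted p = 0.0656).

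In all, 5 of the 9 genes were called at an adjusted p under 0.05, beside 495 of all 6360 detected genes (7.78%), and all 5 (THBS1, TGFBI, TIMP1, TIMP3 and SERPINH1) were lower in high muscling, a direction called for 350 detected genes (5.50%). The other 4 also had differences below 0. The median difference of the 9 genes was -0.92, and that of all detected genes was -0.04. The family means of the 3 high muscling sires were all below those of the 3 low muscling sires for 4 genes (THBS1, TIMP1, TIMP3 and FN1), beside 728 detected genes (11.4%). In FN1 the gap between the classes was only 0.09 log2, against an SD within families of 0.88.

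These calls rested on few sires. With the 6 family means as samples, 3 against 3, limma called 0 of 6360 genes (886 had an unadjusted p under 0.05, among them 6 of the 9 genes), with adjusted p of 0.0727 for THBS1, 0.153 for TIMP3, 0.182 for TIMP1, 0.234 for SERPINH1 and 0.279 for TGFBI. An exact permutation test of 3 families against 3 cannot give a p below 0.1. Without sire 16 none of the 5 genes was called, with 29 genes called among all, and TIMP1 had an adjusted p of 0.0573. Without sire 5 TIMP1 was the 1 gene left, with 23 genes called among all. Without sire 2 THBS1 (0.0565) and TGFBI (0.128) were lost, with 290 genes called among all, and without sire 7 THBS1 was lost (0.128), with 272 genes called. Without sire 17, FN1 (0.00845) and MMP2 (0.0326) were called as well, both lower in high muscling, while the count over all genes was 1221. The log2 differences themselves stayed below 0 for all 9 genes in each of these fits.

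Families within a muscling class also differed. A moderated F test of the 4 contrasts between sires within classes called 3 of the 9 genes, MMP2 (adjusted p = 0.000916), SERPINH1 (0.00327) and TGFBI (0.0451), beside 1402 detected genes (22.0%). MMP2 was lowest in sire 11, with a mean log2 signal of 6.02 ± 0.19 (SD, n = 8), and nearly as low in the low muscling sire 17, with 6.14 ± 0.42 (n = 5). The means of sires 2 (6.67), 7 (6.75) and 16 (6.84) followed, and sire 5 was highest, with 7.20 ± 0.30 (n = 8). Of these steps, the one from sire 17 to sire 2 (0.54) exceeded the SD within families (0.41). The order of MMP2 thus crossed the muscling classes, with a low muscling family second from the bottom.

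For SERPINH1, sire 11 had 8.10 ± 0.51, sire 7 had 8.47, sire 17 had 8.94 and sire 2 had 8.99, and these neighbours differed by less than the SD within families (0.48). A larger step of 0.73 led to sire 5 (9.72) and sire 16 (9.97 ± 0.50), so that the progeny of sire 17 were with the high muscling families. TGFBI had the same split, with 6.48 ± 1.23 in sire 11, 6.55 in sire 2, 7.01 ± 1.34 in sire 17 and 7.38 ± 0.08 in sire 7, followed by 8.29 in sire 16 and 8.46 in sire 5. The step from sire 7 to sire 16 (0.91) was the one above the SD within families (0.81). The F of TGFBI was 3.91 and was lost (adjusted p = 0.375) without sire 17 and in 7 other of the 13 alternatives computed for it, where its adjusted p was between 0.051 and 0.127.

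For TIMP1 the order was sire 11 (7.61 ± 0.45), sire 2 (7.85), sire 7 (8.02) and sire 17 (8.34 ± 0.46), and each of these steps was below the SD within families of 0.36. The step from sire 17 to sire 5 (8.84) was 0.50, and sire 16 had 8.91 ± 0.31. For THBS1 the high muscling sires 7 (7.23 ± 0.42), 11 (7.61) and 2 (7.73 ± 1.19) were followed by sires 5 (8.78 ± 1.33), 17 (9.03) and 16 (9.04). The step between the classes, 1.06, was just above the SD within families of 1.02, and no step within a class was. In THBS1 the mean of sire 17 thus lay between those of the other low muscling sires, whereas in SERPINH1, TGFBI and MMP2 it lay among the high muscling sires.

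TIMP3 had 7.11 in sire 7 and 7.18 in sire 2, then 7.63 in sire 11, and 8.11, 8.14 and 8.17 in sires 16, 17 and 5. The steps from sire 2 to sire 11 (0.45) and from sire 11 to sire 16 (0.47) were just above the SD within families (0.43). FN1 had family means of 6.63 ± 1.23 in sire 11, 7.05 in sire 7, 7.40 in sire 2, 7.49 in sire 17, 8.34 in sire 16 and 8.42 in sire 5. No step reached the SD within families (0.88), and the step between the classes, from sire 2 to sire 17, was 0.09. For SPARC, from 9.40 in sire 11 to 9.79 in sire 5, and TIMP2, from 9.38 in sire 7 to 9.72 in sire 16, no neighbours differed beyond that spread (0.31 and 0.28). Sire accounted for 70.7% of the variance of TIMP1, 70.3% of that of SERPINH1, 17.0% of that of SPARC and 13.9% of that of TIMP2, with a median of 52.9% for the 9 genes and 25.9% for all detected genes. This share includes the difference between the muscling classes.

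Several genes had further probe sets, which did not always follow the main one. Of the 18 probe sets, 8 were called lower in high muscling in the fit over all probe sets, beside 544 of 24016 (2.27%), and this fit also called the main probe set of FN1 (log2 difference -1.13, adjusted p = 0.0353). THBS1 had 6 probe sets, and 2 further ones followed the main probe set over the 40 animals with r = 0.95 and 0.92. Their differences were -1.15 ± 0.35 SE (adjusted p = 0.0446) and -0.79 ± 0.30 SE (0.119). The other 3 had r of 0.30, 0.16 and 0.01 with the main probe set and differences of -0.06, -0.02 and 0.04, although their mean signals of 346, 117 and 96.8 were all above the detection level. THBS1 by the main probe set and by the mean over its probe sets therefore differed, and the mean gave -0.57 (adjusted p = 0.0777).

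The second probe set of TIMP1 had r = 0.74 with the main one and a smaller difference, -0.45 ± 0.12 SE (adjusted p = 0.0224). The main probe set of TIMP1 is, by the naming of the maker, one whose probes can match several transcripts. Whether this bears on its larger difference was not tested. The 2 further probe sets of TIMP2 had differences of -0.06 and 0.19, and the second of FN1, with a mean signal of 28.9, was below the detection level and had a difference of -0.28 ± 0.39 SE. TGFBI, SPARC, TIMP3, MMP2 and SERPINH1 each had 1 probe set.

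**Figure D2:**
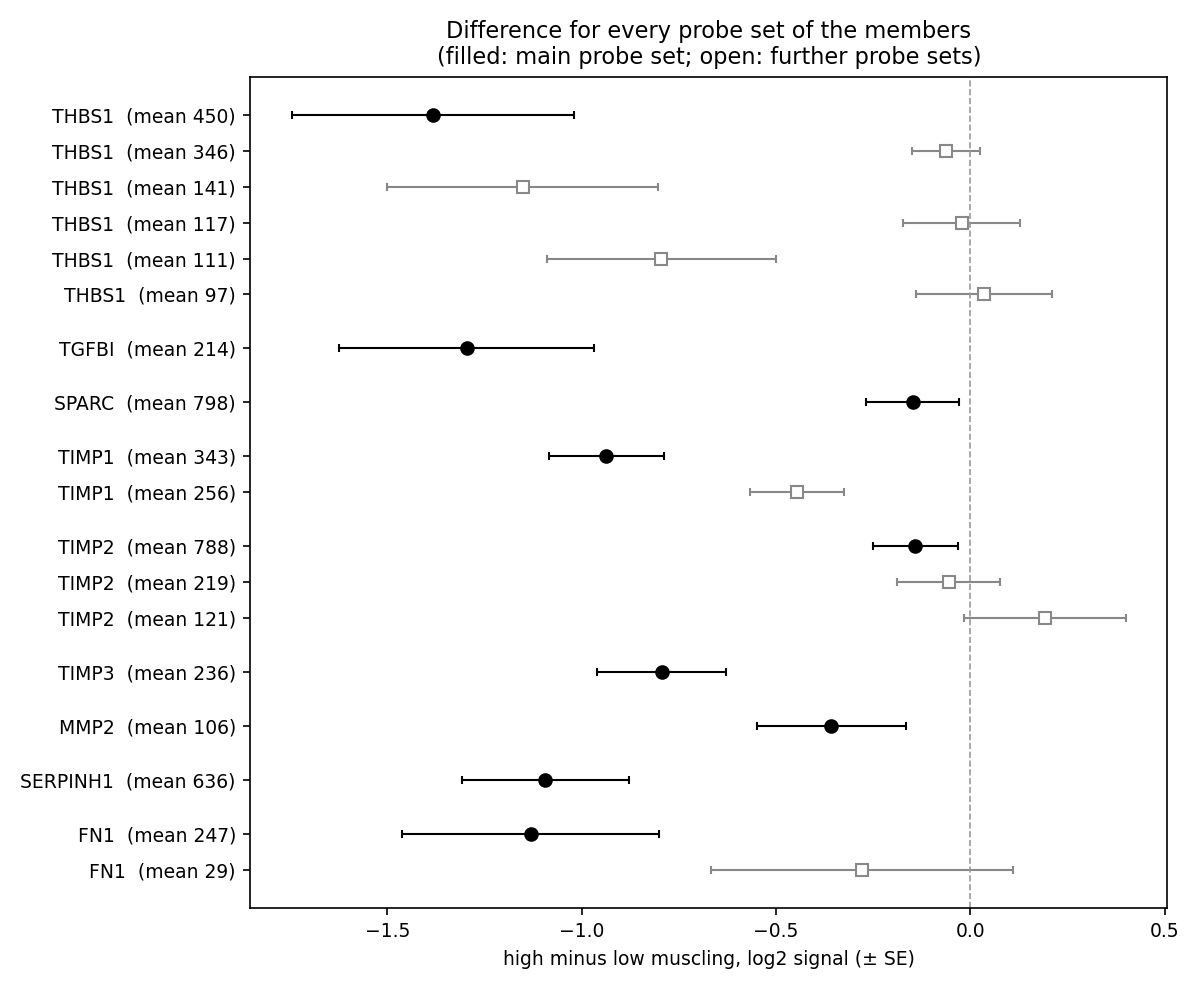
The log2 difference of high minus low muscling is plotted for the 18 probe sets with error bars of 1 SE, from the fit over all probe sets, with the mean signal of each beside its gene name and filled points for the main probe sets. THBS1 splits into 3 probe sets between -1.38 and -0.79 and 3 between -0.06 and 0.04.

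The 9 genes varied together over the animals. All 36 pairs had a positive Pearson r over the 40 arrays, from 0.13 (THBS1 and SPARC) to 0.84 (TIMP1 and SERPINH1), with a median of 0.52, while the median over all pairs of detected genes was 0.01. These are descriptions, since the points share sires and classes. With the mean of each sire family removed, 35 pairs remained positive and the median was 0.30. It was 0.13 in the high muscling animals alone and 0.51 in the low muscling animals alone, a difference that was not tested.

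Some pairs kept most of their correlation within families. TIMP1 and SERPINH1 kept r = 0.60 with sire means removed and were positively correlated in each of the 6 families. THBS1 and TIMP3 had r = 0.77 (rho 0.77) over all animals and 0.68 with sire means removed, with 0.33 in high muscling and 0.85 in low muscling. FN1, MMP2 and SPARC made up a further set, with r of 0.69 for SPARC and FN1, 0.69 for MMP2 and FN1 and 0.65 for SPARC and MMP2. These values were 0.64, 0.58 and 0.58 with sire means removed, and each of the 3 pairs was positive in all 6 families. By contrast THBS1 had r of 0.13 with SPARC and 0.19 with MMP2, which became -0.01 and 0.05 with sire means removed. The r of TGFBI with TIMP1 went from 0.73 to 0.35, so more of it lay between families than for the pairs above.

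**Figure D3:**
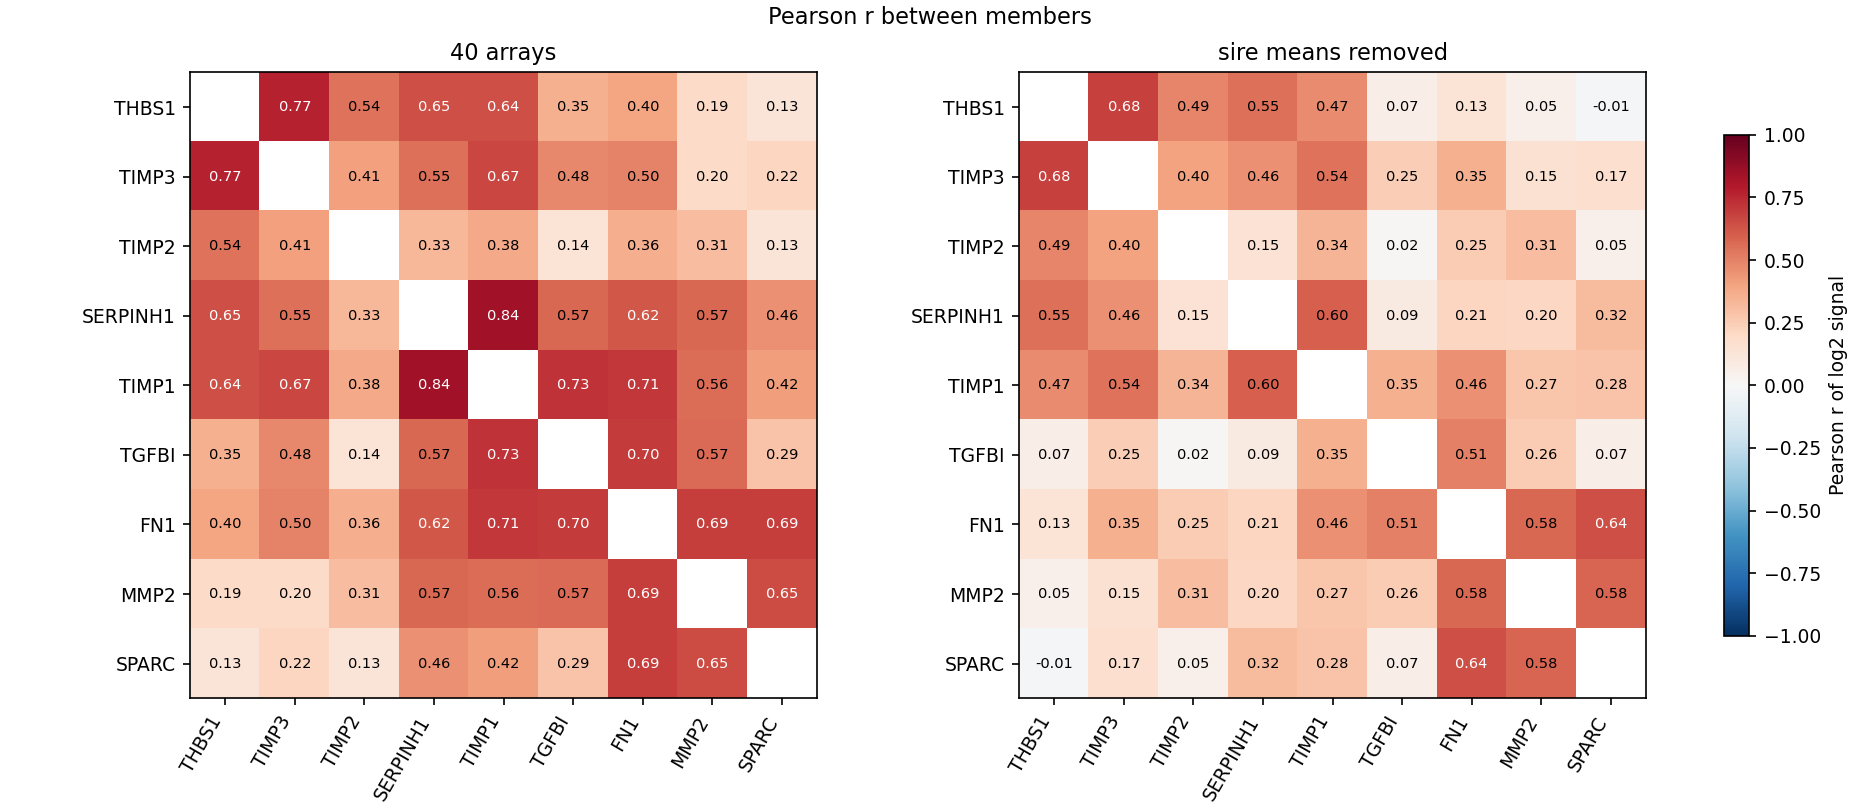
Pearson r of log2 signal is shown for each pair of the 9 genes over the 40 arrays on the left and with the mean of each sire family removed on the right, on a colour scale from -1 to 1 with the values printed. All 36 pairs on the left are above 0. On the right THBS1 with TIMP3, TIMP1 with SERPINH1 and the pairs among FN1, MMP2 and SPARC stay at 0.58 or more.

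**Figure D4:**
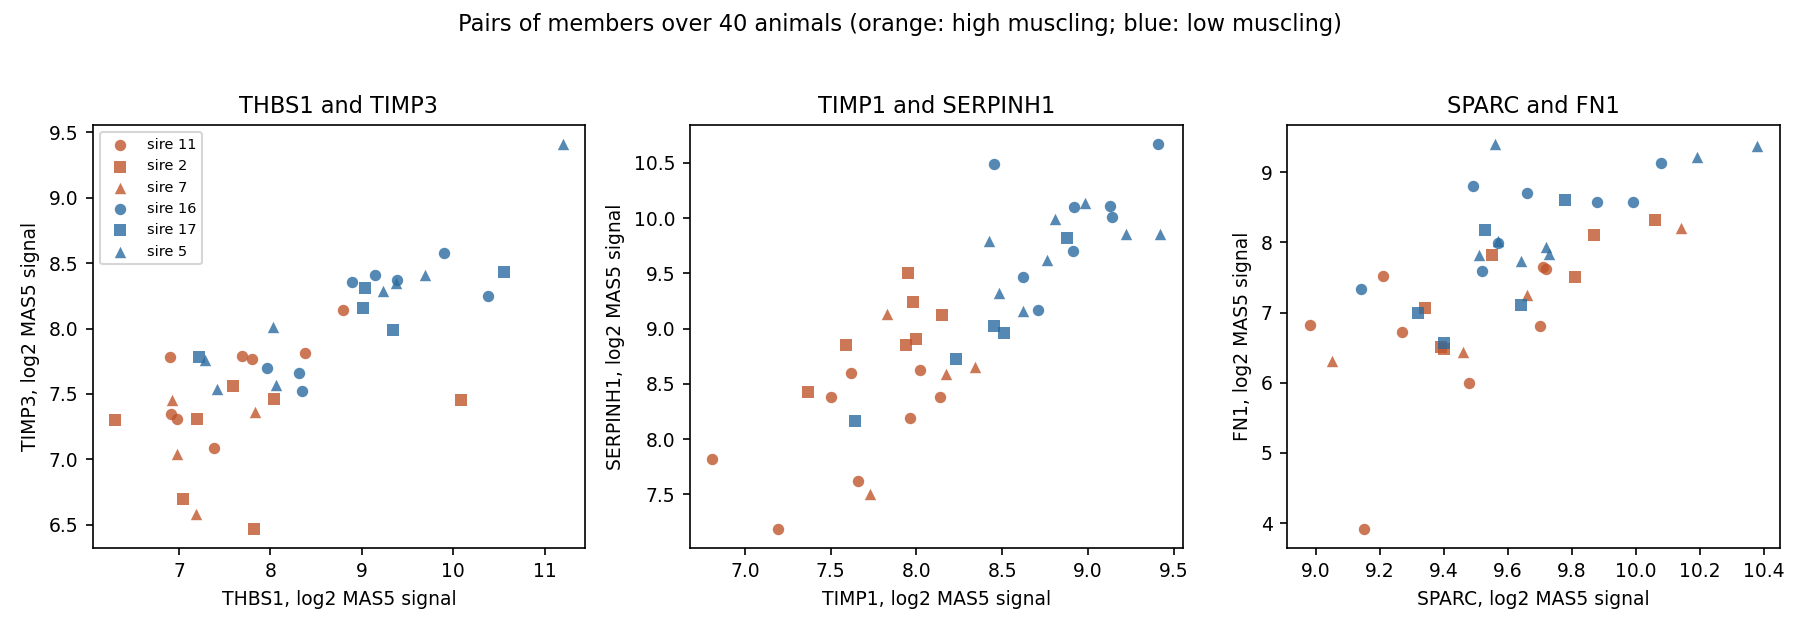
The log2 MAS5 signals of 2 genes are plotted against each other in each panel, with 1 point for each of the 40 animals, colour for the muscling class and shape for the sire. THBS1 with TIMP3 has r = 0.77, TIMP1 with SERPINH1 has r = 0.84 and SPARC with FN1 has r = 0.69, and 1 progeny of sire 11 lies far below the other animals in FN1.

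The genes most like each of the 9 over the 40 arrays were compared as a description. THBS1 was followed most closely by CCN2 (r = 0.90) and CCN1 (0.86), a pair of CCN family matricellular proteins, and by the small heat shock protein gene HSPB8 (0.86). With sire means removed these r values were 0.88, 0.87 and 0.82. SPARC was closest to the type I collagen gene COL1A2 (0.79), CCDC80 (0.79) and DKK3 (0.77). FN1 was closest to ANXA1 (0.83), COL1A2 (0.81) and CCDC80 (0.79). SPARC and FN1 thus shared COL1A2 and CCDC80 among their 3 nearest genes.

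SERPINH1 was closest to ANXA2 (r = 0.87), the actin gene ACTG1 (0.87) and S100A11 (0.87), and TIMP1 to a probe set that the annotation names PRL (0.91), TAGLN2 (0.90) and ANXA2 (0.89). The name PRL was taken from the annotation as it stands. For TIMP3 the nearest were ACTR2 (0.84), MEDAG (0.81) and EIF6 (0.79), with THBS1 at rank 5, and for TGFBI they were C1R (0.80), ITM2B (0.78) and TMSB10 (0.76). MMP2 was closest to ACTN1 (0.80), PROS1 (0.79) and SULT1A1 (0.77). TIMP2 had the weakest likeness, with PFKP at 0.64, SMS at 0.59 and TGIF1 at 0.58.

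Of the other matricellular genes, 6 of 16 detected (21 of 30 listed were measured) were called, all lower in high muscling, and the median difference was -0.38. Beside this and the list counts below, 495 of all 6360 detected genes were called (7.78%), 350 of them lower in high muscling (5.50%). The lowest p was that of MFAP5, a microfibril component, with a mean signal of 1022 in high and 1871 in low muscling (log2 -0.83 ± 0.18 SE, adjusted p = 0.00395). The fibulins FBLN5 (-0.73, 0.00543), EFEMP1 (-0.75, 0.0121) and FBLN1 (-0.64, 0.0133) were also lower. CCN2, the neighbour of THBS1, had a difference of -1.12 ± 0.36 SE at an adjusted p of 0.0497, and SPARCL1, the homologue of SPARC, one of -0.34 ± 0.11 SE (0.0454). Among the other proteases and inhibitors, 0 of 15 detected genes were called by limma at an adjusted p under 0.05 (4 had an unadjusted p under 0.05), with a median difference of -0.18. The 2 with the largest differences were PLAT, the tissue plasminogen activator (-0.48 ± 0.21 SE, adjusted p = 0.15), and SERPINF1 (-0.45 ± 0.17 SE, adjusted p = 0.102). TIMP4, the fourth inhibitor, had -0.32 ± 0.12 SE (0.106).

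Substrates and clients of the 9 genes were also among the genes called, beside a share of 7.78% called over all detected genes. Of 12 detected collagens, 4 were lower in high muscling and none higher (COL3A1 -1.08 ± 0.31 SE, COL1A2 -0.78 ± 0.23 SE, COL1A1 -0.83 ± 0.25 SE and COL4A1 -0.54 ± 0.17 SE, with adjusted p from 0.0251 to 0.0424), and the median was -0.46. Of 15 genes for collagen folding, modification and cross-linking, 4 were lower, among them PPIB (-0.64, adjusted p = 0.00154), PCOLCE2 (-0.96, 0.0142) and PCOLCE (-0.52, 0.0208), and 1 was higher, the lysyl hydroxylase PLOD1 (0.27 ± 0.09 SE, 0.0482). Of 11 small leucine-rich proteoglycan and microfibril genes, FBN1 (-0.79, 0.0131) and DCN (-0.37, 0.0499) were lower, and of 7 basement membrane genes, NID1 was lower (-0.61, 0.0273). Of 15 receptors of these proteins, 0 were called by limma and 7 had an unadjusted p under 0.05, with ITGA5, a subunit of the fibronectin receptor, at -0.51 ± 0.21 SE (adjusted p = 0.137) and ITGB6 at 0.45 ± 0.16 SE (0.0742). Of 9 TGF-beta signalling genes, SMAD3 was higher (0.52 ± 0.14 SE, 0.0172) and TGIF1, a corepressor, was lower (-0.55 ± 0.17 SE, 0.0415) in high muscling.

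**Figure D5:**
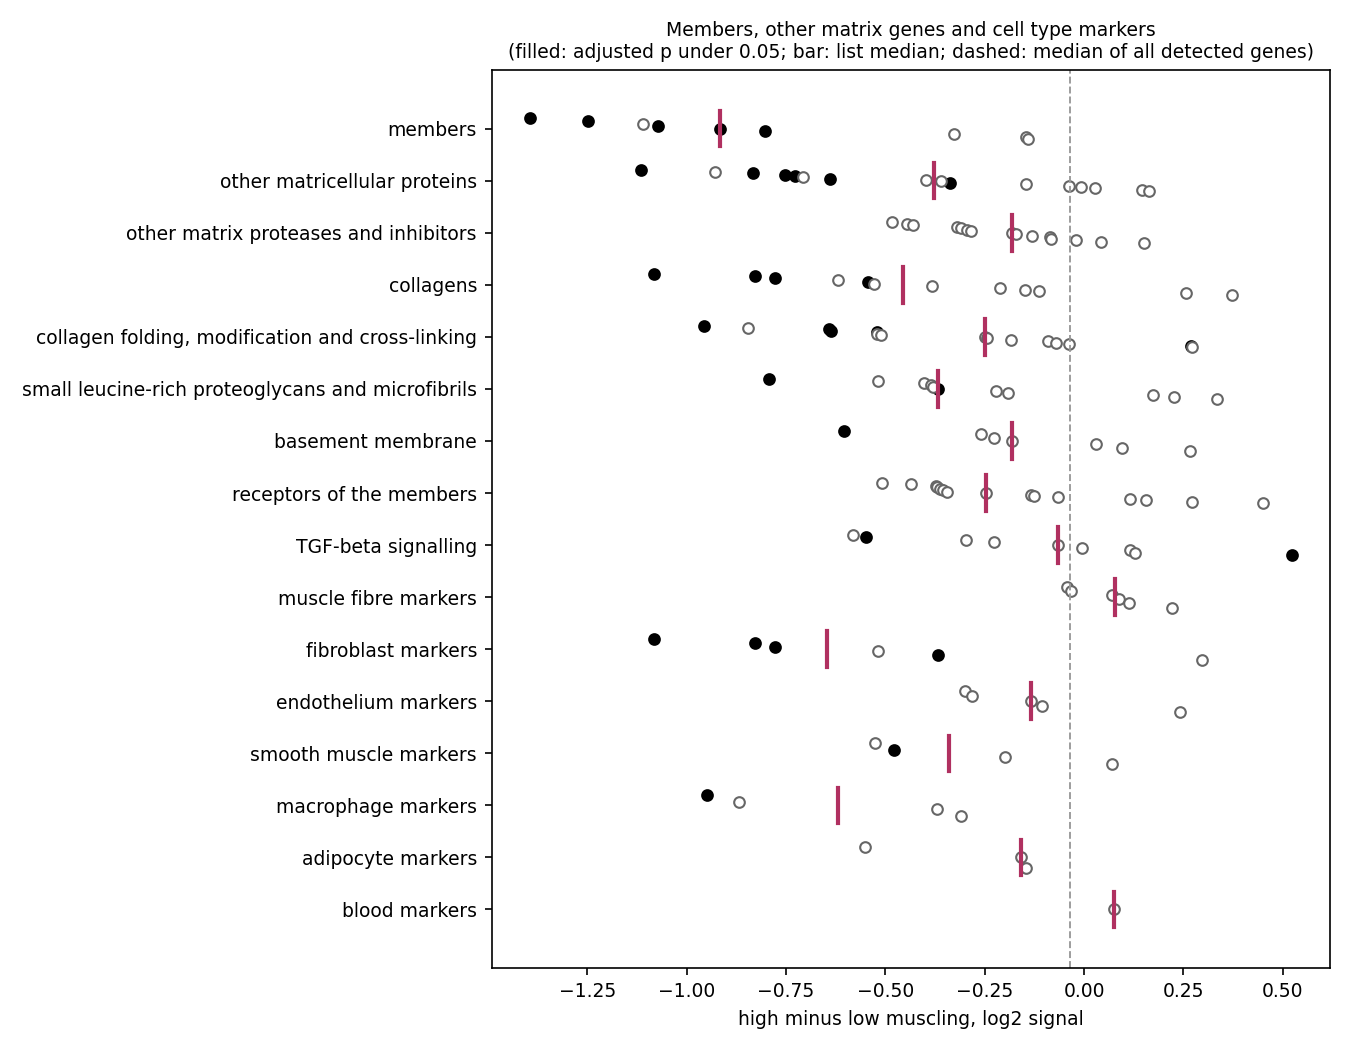
The log2 difference of high minus low muscling is plotted for each detected gene of the 9 genes (top row), the other lists and the cell type markers, with filled points for an adjusted p under 0.05, a bar for the median of a list and a dashed line for the median of all detected genes (-0.04). The bar of the 9 genes is at -0.92, that of the collagens at -0.46 and that of the muscle fibre markers at 0.08.

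Of the marker lists of cell types, the one for fibroblasts had most of its members called, beside a share of 7.78% over all detected genes. The 6 fibroblast markers were all detected, 4 of them were lower in high muscling (DCN, COL1A1, COL1A2 and COL3A1), and LUM (-0.52, adjusted p = 0.0666) and PDGFRA (0.30 ± 0.39 SE, 0.721) were not called. Their summed signal ran from 4745 through a median of 7964 to 11650 in high muscling and from 7376 through 11933 to 21951 in low muscling. Of the 4 macrophage markers measured, AIF1 was lower (-0.95 ± 0.25 SE, 0.0156) and CSF1R, CD68 and CD14 were not called. All 4 had differences below 0, and 3 had an unadjusted p under 0.05 in limma. The median difference was -0.62, and that of the fibroblast markers was -0.65. The summed signal of the macrophage markers had a median of 674 (347 to 930.1) in high muscling and of 1113 (422 to 1664) in low muscling. Both sums are led by the genes with the highest signals and are no level of a cell type. Mean signals were 4707 for DCN and 111 for PDGFRA, and 503 for AIF1 and 116 for CD14.

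In limma, 0 of 6 muscle fibre markers were called (median difference 0.08, 0 with an unadjusted p under 0.05), 0 of 5 endothelial markers (1 with an unadjusted p under 0.05) and 0 of 3 adipocyte markers (0 with an unadjusted p under 0.05), while TAGLN was the 1 of 4 smooth muscle markers that was lower (-0.48, 0.0135). Of the blood markers, 1 of 3 measured was detected, and it was not called. No marker list was at 0 in either class, although KDR and LEP were below the detection level. The mean of the fibroblast markers correlated with FN1 at r = 0.81, SPARC at 0.76, SERPINH1 at 0.76, TIMP1 at 0.72, MMP2 at 0.68, TGFBI at 0.58, TIMP3 at 0.53, THBS1 at 0.42 and TIMP2 at 0.34. With sire means removed, r was 0.77 for SPARC and 0.66 for FN1, between 0.37 and 0.50 for MMP2, SERPINH1, TIMP1 and TIMP3, and 0.22 for TIMP2, 0.21 for TGFBI and 0.14 for THBS1. The mean of the macrophage markers had r = 0.79 with TIMP1, 0.68 with TIMP3 and 0.30 with SPARC, which became 0.61, 0.47 and 0.15 with sire means removed. COL1A1, COL1A2, COL3A1 and DCN stand both in a matrix list and among the fibroblast markers, and the part of these cell types in the differences was not tested.

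The log2 ratio of the 3' to the 5' control probe sets, a mean over 6 control genes, had r between -0.24 and 0.02 with the 9 genes. For ef1a and GST the 3' signal was below the 5' signal on every array. How well this mean measures RNA quality was not tested. With the ratio of actin and gapd alone, r ran from -0.12 (TIMP1) to 0.18 (SPARC). With either ratio as a covariate the same 5 genes were called. The first principal component, by contrast, had r from -0.37 (TIMP2) and -0.41 (SPARC) to -0.89 (SERPINH1) and -0.90 (TIMP1). Whether the array medians followed the 9 genes was not tested. The labels give no date or batch of the arrays, so sire and any batch that followed it cannot be told apart.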

How the data were processed

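The authors deposited MAS5 signals, an intensity on a linear scale, 1 value for each of 24128 probe sets and 40 arrays, on which sheep RNA was hybridised to bovine probes. The version of MAS5 is not given in the sources used here. Each array had a mean of 200 after trimming 2% at each end. No counts underlie array signals. The number of arrays limits the precision within families, and the number of sires that between the muscling classes.

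Of the probe sets, 112 were controls and were left out. Symbols came from the array annotation of the platform: 13292 probe sets had 1 symbol, 86 had several and 10638 had none, and the last 2 kinds named no gene. The 9 symbols were also found in the sheep RefSeq gene table. Log2 signals were taken without a pseudocount. The muscling classes were compared by limma (version 3.58.1, R 4.3.3; lmFit, duplicateCorrelation with sire as the block, consensus correlation 0.135, eBayes, two-sided), over the 6360 detected genes with Benjamini-Hochberg adjustment and a threshold of 0.05. The consensus correlation is 1 value shared by all genes of a fit. For genes with larger differences between sires within classes, such as MMP2, SERPINH1 and TGFBI, the SE and p can be too small. Probe sets were compared in the same way over the 24016 that are not controls. Sire families within classes were compared by the moderated F. Correlations were computed in Python 3.11.15 with numpy 2.4.6 and pandas 2.3.3 and have no p. The fits were tested on simulated data.

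The 9 genes, the gene lists and the tests were chosen with earlier results of these data known, so counts and correlations over them are descriptions and no independent evidence. Named are all members and probe sets, the 3 detected genes with the highest r to each member, the 3 smallest p among the called genes of a list (or, without a call, the 2 largest differences), and the markers of cell types. Named beyond this rule, after their values were seen, were TIMP4, SPARCL1, FBLN1, COL4A1 and PLOD1. Animals of 1 sire share their father, and the p-values measure the spread between these animals. Alternatives covered normalization, a floor, the filter, the mean over probe sets, the block, sire means as samples, each sire left out and the 3'/5' ratio. No sequence or coordinate was used here.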

Additional observations from a re-analysis of the deposited data

Results flagged for a closer look

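In 3 of the 54 combinations of gene and sire family, 1 animal stood apart from the rest of its family by Dixon's criterion for the gap to the nearest value, computed on log2 signals. Chance alone gives about 1 in 20 such combinations. In TGFBI, progeny 88 of sire 17 had a signal of 26.1, while the other 4 progeny had 140.1 to 275. In TIMP3, progeny 11 of sire 5 had 679, while the other 7 had 186 to 340.1. In FN1, progeny 51 of sire 11 had 15.1, while the other 7 had 63.7 to 200.4. On linear signals the criterion also gave 3 combinations, and only the one in TIMP3 was shared with the log2 scale. The other 2 were in THBS1, where progeny 5 of sire 2 had 1089 (the other 6 had 78.8 to 263.5) and progeny 11 of sire 5, the animal that stood apart in TIMP3, had 2345 (the other 7 had 155.7 to 824). Without the 3 animals found on the log2 scale, an alternative chosen after seeing the data, 391 genes were called between the muscling classes, 4 of the 9 genes among them, and THBS1 was lost (adjusted p = 0.0565).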

How the results depend on the processing

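The count of genes called between the muscling classes (495) became 1586 with no block and 0 with sire means as samples, and leaving out each sire in turn gave 23 to 1221. Of the 9 genes, 5 were called, against 0 with sire means as samples and 0 to 7 with each sire left out. The F test between sires called 1402 genes, and 407 to 1389 with each sire left out, the lowest without sire 11 and 846 without sire 17. The median r over 36 pairs (0.52) was 0.13 in high muscling alone, and 0.44 to 0.60 with each sire left out. Quantile normalization, median centring, the floor, no filter on low signals and both 3'/5' covariates (the one with actin and gapd added after seeing the data) kept the calls of the 5 genes, and FN1 was also called with no filter (adjusted p = 0.0456) and with no block (0.00182). No difference of the 9 genes changed its sign in any alternative. The causes were not tested. The number of sires, 3 in each class, sets the precision of every comparison between classes. No paired analysis was possible because the replicate numbers only count the animals within a class and pair nothing, and each sire and each animal belongs to 1 class.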
